A study of Rattus norvegicus with 12 samples.

Results

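The subunit genes of the NADPH oxidases of kidney epithelium and of phagocytes were followed by RNA sequencing in rat kidney cortex across 3 genotypes of Xdh, which encodes the uric acid-forming enzyme xanthine dehydrogenase. The members were the 6 genes Nox4, Cyba, Cybb, Ncf1, Ncf4 and Rac2, found by exact symbol among the 32623 genes of the deposited count table, and all 6 were among the 15856 genes that passed the filter on low counts. All rats were males aged 6 weeks from the strain SS-Xdhem1Mcwi, in which an engineered Xdh mutation is carried on the salt-sensitive SS background. Each genotype had 4 libraries: wild-type rats (WT), rats with 1 mutated allele (HET) and rats with both alleles mutated (HOMO), described as littermates. In HET and HOMO rats every cell of the animal carries the mutation, and the labels give no treatment.

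Library totals were 28481944 to 36119168 counts in WT, 18995464 to 37023629 in HET and 22858907 to 36998378 in HOMO. Mitochondrially encoded genes took 14.4 to 17.0% of counts in WT, 12.9 to 18.6% in HET and 5.97 to 6.75% in HOMO. Levels are given as CPM, counts brought to a common library size after TMM scaling, which corrects library totals for composition. Xdh was at 281, 380, 212 and 270 CPM in WT replicates 1 to 4 and at 182, 197, 140 and 158 CPM in HET, whose replicates are numbered 1, 2, 4 and 5. In the libraries labelled HOMO it was at 61.7, 60.7, 230 and 57.6 CPM in replicates 1 to 4, so the library labelled HOMO replicate 3 lay within the WT range and went against its label on this gene. The members' fold changes, the list counts and the ratios are therefore also given without that library. Nothing in the labels says whether the libraries are from separate animals, so p-values describe the spread between these samples alone, and that spread may be technical. Proximal tubule markers, the defining genes of kidney cortex, were present in every library, with a summed level of 18320 to 23230 CPM in WT, 20450 to 21320 CPM in HET and 1883 to 2103 CPM in HOMO.

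NADPH oxidases move electrons from NADPH across a membrane to oxygen and so make superoxide or hydrogen peroxide. Nox4 is the catalytic subunit most abundant in kidney, is best known from tubule epithelium, is active without an activating signal and releases mainly hydrogen peroxide. Cybb, also called gp91phox or Nox2, is the catalytic subunit of the phagocyte oxidase, which makes the respiratory burst of neutrophils and macrophages. Both catalytic subunits need Cyba (p22phox) as their membrane partner, so Cyba belongs to the renal and to the phagocyte enzyme. The phagocyte enzyme is assembled only on activation, when the organizer Ncf1 (p47phox), its partner Ncf4 (p40phox), other cytosolic factors and the GTPase Rac2 move from the cytosol to the membrane.

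In Rnor_6.0, Nox4 (ENSRNOG00000013925) is listed on chromosome 1 from position 150797084, Cyba (ENSRNOG00000013014) on chromosome 19 from 55249616 and Cybb (ENSRNOG00000003622) on chromosome X from 14578264. Ncf1 (ENSRNOG00000001480) is listed on chromosome 12 from 25497104. Ncf4 (ENSRNOG00000006940) and Rac2 (ENSRNOG00000007350) are listed on chromosome 7 from 119482272 and 119783849, with 301577 bases between the listed starts, and the other members lie on separate chromosomes.

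The promoter stretches of the 3 membrane subunits are shown because the catalytic subunits Nox4 and Cybb, which each pair with Cyba, moved in opposite directions. They come from RefSeq on the build GRCr8, which is not the build of the counts, and promoters of 4 of the 6 members were matched there (Nox4, Cyba, Cybb and Ncf1). Each runs 5′ to 3′ on the strand of the gene, and capitals mark the motifs, of 3 that were searched on both strands. The first was GGGCGG, known as the GC box. The second was the CCAAT box, searched by the letters of its name. The third was GAGGAA, the core of sites of the myeloid factor PU.1. On the opposite strand this core reads TTCCTC.
Nox4, chr1:150313639-150313735, plus strand, the 97 bases from -250 to -154: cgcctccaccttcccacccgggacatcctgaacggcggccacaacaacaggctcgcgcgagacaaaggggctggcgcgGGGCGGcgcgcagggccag
Cyba, chr19:67404215-67404314, minus strand, the 100 bases from -100 to -1: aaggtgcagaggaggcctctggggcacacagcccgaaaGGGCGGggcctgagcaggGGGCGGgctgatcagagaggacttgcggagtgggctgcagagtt
Cybb, chrX:16065066-16065165, minus strand, the 100 bases from -100 to -1: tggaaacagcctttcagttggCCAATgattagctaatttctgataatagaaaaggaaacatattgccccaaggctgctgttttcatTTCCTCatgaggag

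The stretches of Nox4 and Cyba were rich in G and C (73.2% and 67.0%), and that of Cybb was not (40%). In the whole 300-base windows, GGGCGG occurred at -172 and -114 of Nox4, at -62 and -44 of Cyba and at -212 of Ncf1, and CCAAT occurred at -203 and -79 of Cybb. The PU.1 core occurred in 1 of the 4 windows, at -14 of Cybb. No match overlapped another. Each motif was common: of 33469 rat promoter windows of this length, 27.6% held GAGGAA, 33.1% held GGGCGG and 37.5% held CCAAT. A match is a run of letters, and binding was not measured.

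Between HOMO and WT, the renal catalytic subunit fell and the phagocyte one rose. Nox4 was 10.3-fold lower and Cyba 2.06-fold lower in HOMO, while Cybb was 4.63-fold higher, Ncf1 9.02-fold, Ncf4 6.07-fold and Rac2 4.53-fold higher. All 6 members passed the test (edgeR's quasi-likelihood test with Benjamini-Hochberg adjustment over all genes, at 0.05), against a background in which 71.7% of the 15856 genes tested were called, 37.0% higher and 34.7% lower in HOMO. The WT and HOMO libraries did not overlap for any of the 6 members, as was so for 66.4% of all genes. With a background this high, a called difference does not set the members apart from other genes. Among all genes tested, 385 (2.43%) fell more than Nox4 and 2364 (14.9%) had a log2 fold change further below 0 than Cyba. On the higher side, the share of genes above the member was 4.51% for Ncf1, 6.69% for Ncf4, 9.13% for Cybb and 9.32% for Rac2. These are bulk samples, in which fewer cells of a type and less RNA per cell cannot be told apart.

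Nox4 was at 542, 725, 448 and 526 CPM in WT replicates 1 to 4 and at 56.2, 64.6, 53.2 and 42.7 CPM in HOMO replicates 1 to 4. The highest HOMO library was far below the lowest WT library, and HOMO replicate 4 was the lowest of all. The mean was 560 ± 117 CPM in WT (SD, n = 4) and 54.2 ± 9.05 CPM in HOMO (SD, n = 4), a log2 fold change of -3.37 ± 0.17 (SE), with an adjusted p of 3.21e-09 in edgeR's test. Without the library labelled HOMO replicate 3, the log2 fold change was again -3.37 (edgeR adjusted p = 4.54e-08).

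Cyba, the partner of both catalytic subunits, was at 212, 233, 167 and 173 CPM in WT and at 87.7, 92.9, 82.6 and 119 CPM in HOMO. All WT libraries lay above all HOMO libraries, by a smaller distance than for Nox4, and HOMO replicate 4 was the highest of its group. Cyba averaged 196 ± 31.7 CPM in WT and 95.5 ± 16.2 CPM in HOMO (SD, n = 4 each), which is -1.04 ± 0.14 on the log2 scale with an edgeR adjusted p of 1.43e-05. Without the library labelled HOMO replicate 3 it was -0.98 (edgeR adjusted p = 6.06e-05). The size of the Cyba fall depended on the scaling: with library totals alone it was -0.43 (edgeR adjusted p = 0.00565). That scaling moved the median log2 fold change of all genes from 0.04 to 0.65 and the share of calls that were higher from 51.6% to 80.1%. A change of scaling shifts all genes by nearly the same amount. The distance of Cyba from the median gene therefore stays similar by construction and adds no support for its fall. Nox4 at -2.75 and the 4 phagocyte members at 2.78 to 3.78 kept their call and direction with library totals alone. Because that shift was upward, the 4 phagocyte members could hardly lose their call, and keeping it adds no support for their rise.

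Cybb was at 42.6, 34.7, 22.7 and 31.5 CPM in WT and at 129, 146, 144 and 190 CPM in HOMO. The lowest HOMO library was above the highest WT library. The mean was 32.9 ± 8.22 CPM in WT and 152 ± 26.3 CPM in HOMO (SD, n = 4 each), which is 2.21 ± 0.18 on the log2 scale with an edgeR adjusted p of 2.07e-07. It was 2.23 without the library labelled HOMO replicate 3 (edgeR adjusted p = 1.07e-06).

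**Figure D1:**
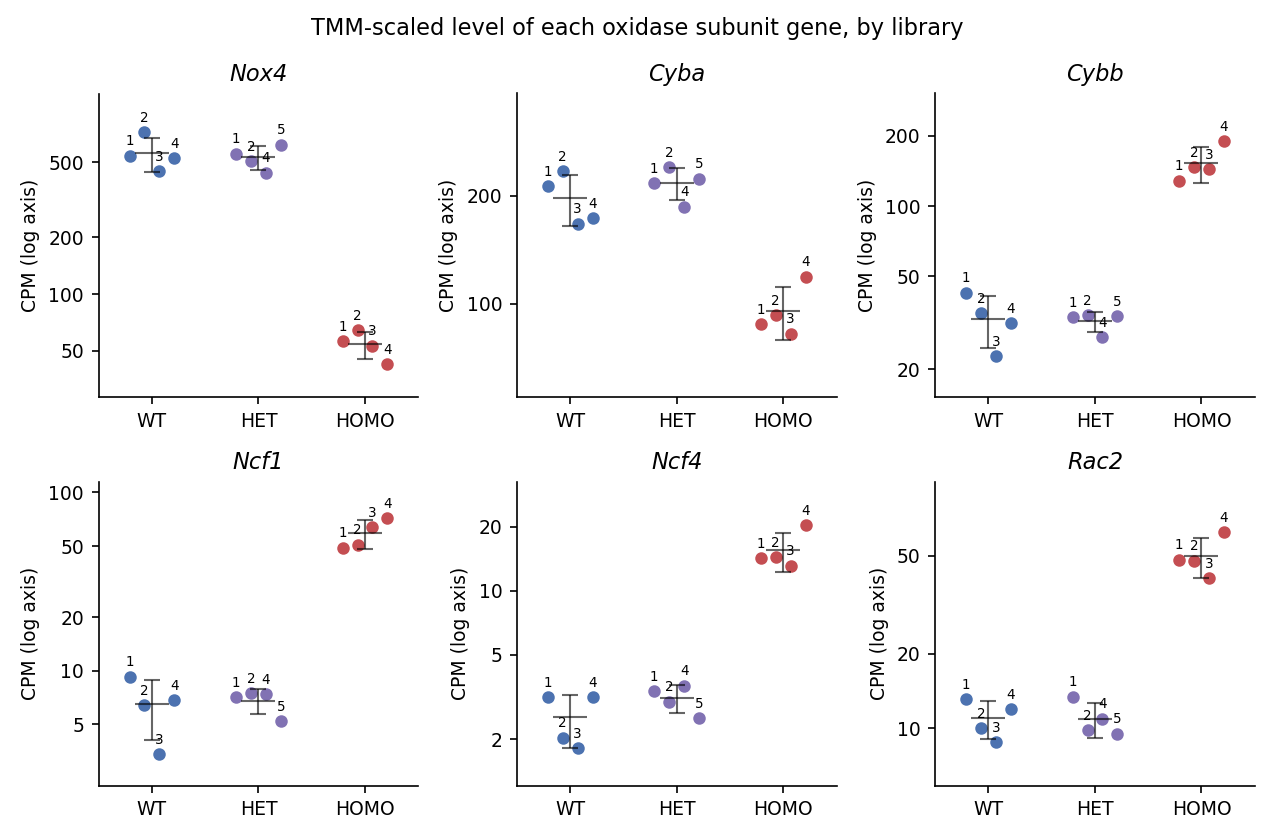
Level of the 6 members in each library, as TMM-scaled CPM on a log axis, by genotype; points are libraries with their replicate numbers and black bars are the mean with its SD over 4 libraries. WT and HET overlap in every panel, while HOMO lies below them for Nox4 (42.7 to 64.6 CPM) and Cyba and above them for Cybb, Ncf1, Ncf4 and Rac2.

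Levels of different genes were compared only per length, as CPM per kilobase of listed gene length. In WT the order among the members was Cyba at 256 ± 41.3, Nox4 at 149 ± 31.2, then Rac2 at 8.04, Cybb at 7.69, Ncf1 at 2.25 and Ncf4 at 1.69 CPM per kilobase. Rac2 and Cybb, and likewise Ncf1 and Ncf4, were neighbours in this order whose library values overlapped. In HET the order was Cyba (282 ± 29.2), Nox4 (142 ± 20.3), Rac2 (8.01), Cybb (7.5), Ncf1 (2.36) and Ncf4 (2.08), with overlap in the same pairs. In HOMO, Cyba was again the highest at 124 ± 21 CPM per kilobase, but Rac2 at 36.5, Cybb at 35.6 ± 6.16 and Ncf1 at 20.4 followed, above Nox4 at 14.4 ± 2.41 and Ncf4 at 10.4. In HOMO the library values of Rac2 and Cybb overlapped, as did those of Ncf1 and Nox4 and those of Nox4 and Ncf4.

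The 2 catalytic subunits thus changed places. The ratio of Nox4 to Cybb per length was 14.5 to 23.8 in WT, 17.0 to 21.1 in HET and 0.256 to 0.503 in HOMO. Nox4 was the more abundant of the pair in each WT and HET library and Cybb in each HOMO library, the library labelled HOMO replicate 3 included. Cyba per length stood at 1.51 to 1.79 times the sum of both catalytic subunits in WT, 1.67 to 2.19 times in HET and 2.24 to 2.78 times in HOMO. Its level was above that sum in each of the 12 libraries. These ratios per length were formed after the values had been seen and are given as a description, without a test.

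**Figure D2:**
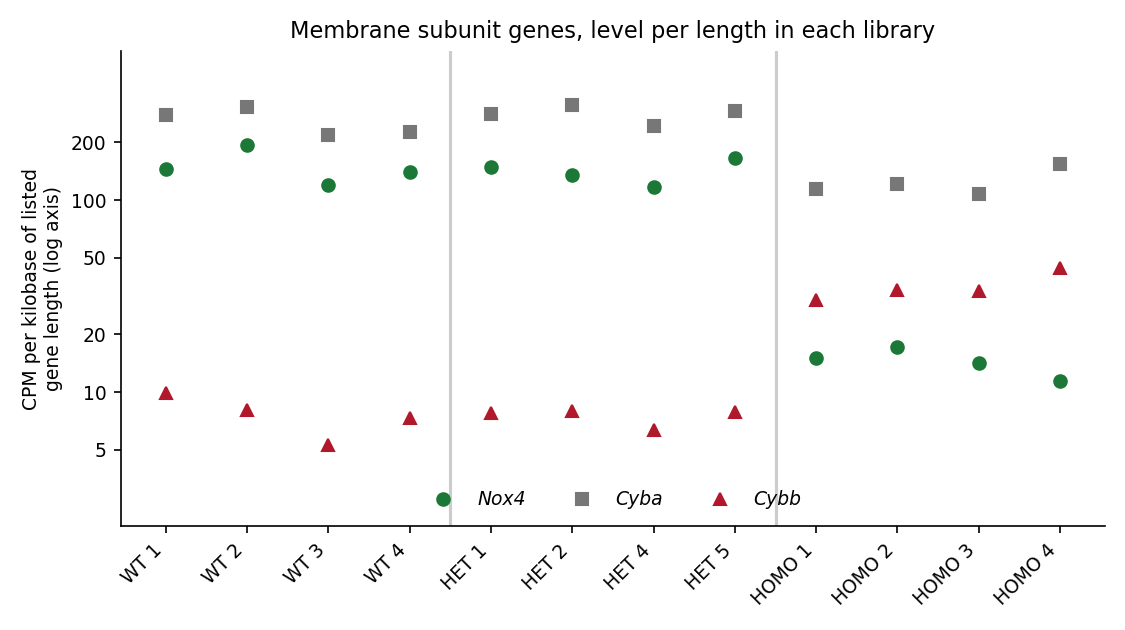
Level of the 3 membrane subunits in each library as CPM per kilobase of listed gene length on a log axis, by genotype, with points as libraries. Nox4 lies above Cybb in each WT and HET library and below it in each HOMO library, while Cyba stays highest throughout.

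The cytosolic subunits of the phagocyte oxidase were low in WT. Ncf1, the organizer that carries the activating phosphorylation sites, was at 9.24, 6.43, 3.40 and 6.86 CPM in WT and at 48.9, 50.8, 63.9 and 71.4 CPM in HOMO. The groups were far apart, and the WT libraries themselves differed by 2.72-fold between replicate 1 and replicate 3. The log2 fold change of Ncf1 was 3.17 ± 0.25 (edgeR adjusted p = 2.41e-07), from 6.48 ± 2.40 to 58.8 ± 10.7 CPM (SD, n = 4 each), and 3.13 without the library labelled HOMO replicate 3 (edgeR adjusted p = 1.26e-06). Human NCF1 has near-identical pseudogenes, and whether reads of a rat copy were shared with this gene was not tested.

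Ncf4, which binds a phosphoinositide of the phagosome membrane, was at 3.14, 2.03, 1.81 and 3.15 CPM in WT and at 14.2, 14.4, 13.1 and 20.3 CPM in HOMO. It was the member with the fewest reads, with 48 to 100 counts per library in WT, 41 to 108 in HET and 571 to 690 in HOMO. The groups did not overlap, and HOMO replicate 4 was the highest. The mean went from 2.53 ± 0.711 to 15.5 ± 3.23 CPM (SD, n = 4 each), a rise of 2.60 ± 0.21 on the log2 scale (edgeR adjusted p = 1.83e-07), or 2.67 without the library labelled HOMO replicate 3 (edgeR adjusted p = 4.38e-07).

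Rac2, the GTPase of blood cells that completes the active enzyme, was at 13.1, 9.98, 8.77 and 11.9 CPM in WT and at 48.2, 47.9, 40.5 and 62.2 CPM in HOMO. Every HOMO library was above every WT library. Its mean rose from 10.9 ± 1.94 to 49.7 ± 9.09 CPM (SD, n = 4 each), a rise of 2.18 ± 0.16 on the log2 scale (edgeR adjusted p = 7.93e-08), or 2.26 without the library labelled HOMO replicate 3 (edgeR adjusted p = 1.12e-07).

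Within groups, several members shared their highest and lowest library. In WT, replicate 3 was the lowest for each of the 6 members and for the leukocyte genes Ptprc and Csf1r. Replicate 1 was the highest WT library for Cybb, Ncf1, Rac2, Ptprc and Csf1r, replicate 4 for Ncf4, and replicate 2 for Nox4 and Cyba. In HOMO, replicate 4 was the highest for Cyba, Cybb, Ncf1, Ncf4, Rac2, Ptprc and Csf1r and the lowest for Nox4. Xdh, which is not a member, was also lowest in WT replicate 3, while its highest HOMO library was replicate 3. The share of all genes with these extreme libraries was not counted, so the shared order does not set the members apart.

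Between HET and WT no member was called. Nox4 was at 556, 506, 442 and 622 CPM in HET replicates 1, 2, 4 and 5, and Cyba at 217, 240, 186 and 223 CPM. Cybb was at 33.3, 34.0, 27.3 and 33.6 CPM and Ncf1 at 7.10, 7.5, 7.38 and 5.21 CPM. Ncf4 was at 3.36, 3.00, 3.58 and 2.51 CPM and Rac2 at 13.4, 9.82, 10.9 and 9.50 CPM. The HET and WT ranges overlapped for each of the 6 members, and they failed to overlap for 1.62% of all genes. The log2 fold changes were -0.08 ± 0.16 for Nox4, 0.14 ± 0.13 for Cyba, -0.04 ± 0.17 for Cybb, 0.07 ± 0.25 for Ncf1, 0.30 ± 0.21 for Ncf4 and 0.00 ± 0.16 for Rac2, each with its SE. The lowest unadjusted p of the 6 was 0.189, for Ncf4, and all 6 adjusted p-values were 1 in edgeR's test. In this comparison 0 of the 15856 genes were called (0%), also by DESeq2 and limma voom, and 318 had an unadjusted p under 0.05 in edgeR (2.01%), 330 in DESeq2 and 236 in limma voom. Xdh itself was at -0.75 ± 0.43 on the log2 scale (edgeR adjusted p = 1), and its HET range of 140 to 197 CPM lay below its WT range.

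Between HOMO and HET all 6 members passed the test, beside 70.6% of all genes (36.2% higher and 34.5% lower). The HOMO and HET ranges did not overlap for any of the 6 members, as was so for 64.4% of all genes. The log2 fold changes were -3.29 ± 0.17 for Nox4 and -1.18 ± 0.14 for Cyba, with edgeR adjusted p-values of 3.63e-09 and 4.65e-06. Cybb rose by 2.25 ± 0.18, Ncf1 by 3.10 ± 0.25, Ncf4 by 2.31 ± 0.21 and Rac2 by 2.18 ± 0.16 on the log2 scale, with edgeR adjusted p-values between 8.08e-08 (Rac2) and 5.14e-07 (Ncf4). Without the library labelled HOMO replicate 3, the values against HET were -3.29 for Nox4, -1.12 for Cyba, 2.27 for Cybb, 3.06 for Ncf1, 2.37 for Ncf4 and 2.26 for Rac2, all called by edgeR. The comparisons of HOMO with WT and with HET share the HOMO libraries and are not independent. With library totals alone Cyba was at -0.55 between HOMO and HET (edgeR adjusted p = 0.00098). The authors' deposited table for HOMO against WT gives log2 fold changes of -3.36 for Nox4, -1.04 for Cyba, 2.22 for Cybb, 3.18 for Ncf1, 2.61 for Ncf4 and 2.18 for Rac2. The false discovery rates in the authors' deposited table ran from 5.09e-63 for Nox4 to 3.99e-09 for Cyba, and its table for HET against WT lists all 6 members with a rate of 1.

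The members were then set beside markers of the cell types known for expressing them. Between HOMO and WT, 37.0% of all genes tested were called higher and 34.7% lower, which is the background for the count of each marker list. Markers of proximal tubule fell, 9 of 9 (median log2 fold change -3.75 against 0.04 over all genes), as Nox4 did. All 3 pan-leukocyte markers rose, with a summed level of 36.6 to 69.4 CPM in WT, 50.9 to 63.4 in HET and 232 to 304 in HOMO. Of the macrophage and monocyte markers 9 of 9 rose (median 2.99), from a sum of 236 to 356 CPM in WT and 277 to 327 in HET to 1848 to 2672 CPM in HOMO. The 8 neutrophil markers summed to 1.99 to 3.96 CPM in WT, 2.55 to 16 in HET and 108 to 231 in HOMO. All 6 neutrophil markers that were tested rose, but 3 of them (Cxcr2, Mmp8 and Camp) passed the filter on low counts through HOMO alone, as did the macrophage marker Cd163 and all 3 B cell markers, so their rise adds no support. The granule genes Mpo and Elane were at 0 in all WT libraries and Elane in all HET libraries as well. All 317 Mpo counts of HET came from 1 library, and 1695 of the 1721 counts of HOMO from 1 library. Of the T and NK cell markers 5 of 6 rose and 1 did not pass (3.59 to 5.94 CPM in WT, 4.42 to 5.27 in HET, 19.3 to 30.1 in HOMO). All 3 B cell markers rose, from 0.189 to 0.677 CPM in WT and 0.524 to 0.966 in HET to 2.28 to 5.07 CPM in HOMO. All 5 fibroblast markers rose as well, from 358 to 515 CPM in WT to 1900 to 3339 CPM in HOMO. Of the other cortex types, 3 of 5 distal nephron markers fell and 2 did not pass, and among the 4 endothelial and the 4 podocyte markers 3 fell and 1 rose in each list. Without the library labelled HOMO replicate 3, 4 of 5 distal nephron markers fell and 6 of the then 7 tested neutrophil markers rose, and the counts of the other marker lists against WT stayed as given. The part of these cell types in the members' differences was not tested.

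Ratios of counts within a library are free of library scaling, and 6 of them were compared between HOMO and WT. The test was an exact two-sided permutation test over the 70 arrangements of the libraries, whose smallest possible p is 0.0286, with Benjamini-Hochberg adjustment over the 6 ratios. None of the 6 passed 0.05 after adjustment. Those at the smallest possible p were adjusted to 0.0571, so for them a pass was out of reach in this set. The ratio of Cyba to Nox4 counts was 0.391, 0.322, 0.373 and 0.329 in WT, 0.390, 0.475, 0.422 and 0.358 in HET and 1.56, 1.44, 1.55 and 2.79 in HOMO. Every HOMO library lay above every WT and HET library, so Cyba fell by less than Nox4 in each. On the log2 scale the ratio differed by 2.32 ± 0.23 (SE), with an exact p of 0.0286 (adjusted 0.0571), or by 2.39 without the library labelled HOMO replicate 3. The other ratios without that library differed by 0.06 for Cybb, 0.08 for Rac2, 1.01 for Ncf1 and 0.52 for Ncf4 to Ptprc, and by -0.57 for Nox4 to Lrp2.

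The ratios of Cybb and Rac2 to Ptprc, the leukocyte common antigen CD45, overlapped between HOMO and WT. The count ratio of Cybb to Ptprc was 2.09, 2.24, 2.05 and 1.79 in WT and 1.93, 2.05, 2.38 and 2.41 in HOMO. The log2 difference was 0.10 ± 0.10 (exact permutation p = 0.429, adjusted 0.514). For Rac2 to Ptprc it was 0.642 to 0.792 in WT and 0.667 to 0.789 in HOMO, a log2 difference of 0.05 ± 0.09 (exact permutation p = 0.6, adjusted 0.6). The signs of both differences turned when Csf1r, the macrophage growth factor receptor, took the place of Ptprc (-0.09 for Cybb and -0.14 for Rac2). With Coro1a, an actin-binding protein of leukocytes, they were 0.25 and 0.20.

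Ncf1 stood higher against the 3 leukocyte genes used as references, Ptprc, Csf1r and Coro1a. Their own log2 fold changes were 2.10, 2.30 and 1.94, below the 3.17 of Ncf1. Other macrophage markers lay on both sides of Ncf1, such as Lyz2 (2.99) and Mrc1 (4.65). The neutrophil markers that did not pass the filter through HOMO alone, Csf3r (4.45), S100a8 (6.17) and S100a9 (6.25), all lay above Ncf1. Ratios to those were not formed, so the result holds for these references alone. Its count ratio to Ptprc was 0.453, 0.415, 0.307 and 0.389 in WT, 0.368, 0.455, 0.515 and 0.252 in HET and 0.734, 0.712, 1.05 and 0.906 in HOMO. The HOMO libraries lay above all the others, with a log2 difference from WT of 1.12 ± 0.18, or 2.17-fold (exact permutation p = 0.0286, adjusted 0.0571). Against Csf1r the difference was 0.92 and against Coro1a 1.27 (both with an adjusted exact p of 0.0571). The Ncf4 to Ptprc ratio was 0.131 to 0.178 in WT, 0.122 to 0.250 in HET and 0.202 to 0.257 in HOMO. Its HOMO range was clear of WT but overlapped HET, and the log2 difference from WT was 0.50 ± 0.12 (exact permutation p adjusted 0.0571). With Csf1r as the reference, the Ncf4 difference was 0.31 (adjusted exact p = 0.171), and with Coro1a it was 0.65 (adjusted exact p = 0.0571).

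The ratio of Nox4 to Lrp2, the megalin receptor of proximal tubule, was 0.105, 0.105, 0.0694 and 0.0990 in WT and 0.0732, 0.0709, 0.0852 and 0.0480 in HOMO. The ranges overlapped, with a log2 difference of -0.46 ± 0.23 (exact permutation p = 0.114, adjusted 0.171). The result depended on the reference gene. With Slc34a1, the phosphate transporter of proximal tubule, it was 0.89, and with Cubn, the partner of megalin, it was -1.55 (adjusted exact p = 0.0429 for both). Both were at the smallest possible exact permutation p of 0.0286, as Cyba to Nox4 was. Their adjusted value was below that of Cyba to Nox4 only because a further ratio was then at that smallest p. The log2 fold change of Nox4 itself lay between those of Slc34a1 (-4.26 ± 0.11) and Lrp2 (-2.90 ± 0.15), with Cubn at -1.83 ± 0.14, so these markers differed among themselves.

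**Figure D3:**
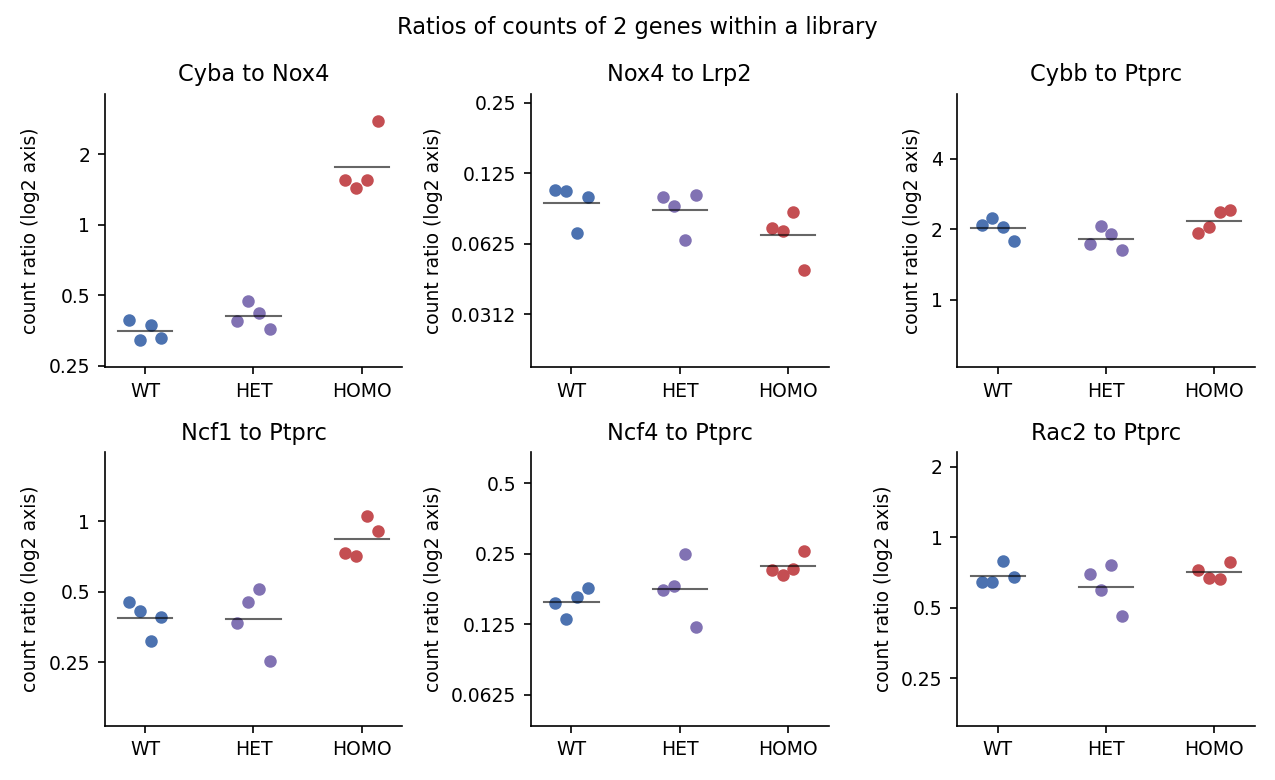
Ratio of 2 genes' counts in each library by genotype, on a log axis, for the 6 ratios compared; points are libraries and the line is the mean on the log2 scale. HOMO is clear of WT and HET for Cyba to Nox4 (1.44 to 2.79) and Ncf1 to Ptprc (0.712 to 1.05), and overlaps WT for Cybb to Ptprc, Rac2 to Ptprc and Nox4 to Lrp2.

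Other genes of the oxidase family followed, from 14 listed genes of which 9 were tested. Of these, 6 rose, 2 fell and 1 did not pass between HOMO and WT (median log2 fold change 1.09, against 0.04 over all genes), and 0 were called between HET and WT. Of these 9, Noxo1, Duoxa1 and Duox1 passed the filter on low counts through the HOMO libraries alone, and the 6 others gave 3 higher, 2 lower and a median of 0.43. Over all genes 37.0% were called higher and 34.7% lower. Leaving out the library labelled HOMO replicate 3, 6 of the 9 were called higher and 1 lower. Cybc1, a chaperone needed for stable Cybb and Cyba protein, rose by 0.76 ± 0.07 on the log2 scale (edgeR adjusted p = 5.72e-07), from 30.1 to 35.3 CPM in WT to 53.8 to 57.6 CPM in HOMO. Poldip2, which binds Cyba and raises Nox4 activity, changed by -1.19 ± 0.06 (edgeR adjusted p = 4.39e-09), from 143 to 159 CPM in WT to 64.1 to 68.7 CPM in HOMO. The adaptor genes Sh3pxd2b and Sh3pxd2a, which organise oxidases at podosomes, rose by 2.24 ± 0.18 and 1.09 ± 0.11. The GTPase Rac1, the widely expressed relative of Rac2, was at 0.09 ± 0.07 and did not pass (edgeR adjusted p = 0.245), while Rac3 fell by 0.73 ± 0.25 (edgeR adjusted p = 0.0196). With library totals alone Rac1 was called higher at 0.71 and Rac3, at -0.11, was not called (edgeR adjusted p = 0.691).

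Oxidase genes of other epithelia had few reads. Noxo1, the organizer of the colonic oxidase, had 8 counts over the 4 WT libraries, 2 over HET and 612 over HOMO (log2 fold change from WT 5.64 ± 0.53, edgeR adjusted p = 7.04e-07). Duoxa1, the maturation factor of dual oxidase, had 14, 14 and 211 counts (3.28 ± 0.61, edgeR adjusted p = 3.33e-04), and Duox1 had 11, 10 and 115 (2.74 ± 0.62, edgeR adjusted p = 0.00136). Noxo1, Duoxa1 and Duox1 passed the filter on low counts through HOMO alone, so their rise and its p-values add no support. Nox1, Duox2, Duoxa2, Noxa1 and Nox3 were below the filter, with 48, 52, 64, 10 and 2 counts over the HOMO libraries and at most 4 over WT or HET.

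Regulators of the phagocyte oxidase numbered 10 tested genes, of which 6 rose, 3 fell and 1 did not pass between HOMO and WT (median log2 fold change 1.48), beside 37.0% higher and 34.7% lower over all genes. Leaving out the library labelled HOMO replicate 3, 7 rose and 3 fell. Hvcn1, the proton channel that balances the charge the oxidase moves, had the largest rise of the list at 3.8 ± 0.27 (edgeR adjusted p = 4.41e-08). Vav1 and Prex1, exchange factors that load Rac with GTP, rose by 2.62 ± 0.23 and 1.34 ± 0.20. Prkcb, a kinase that phosphorylates p47phox, rose by 2.03 ± 0.27, Pik3cg, a lipid kinase of leukocytes, by 1.63 ± 0.22, and Arhgdib, the inhibitor that holds Rac2 in the cytosol, by 1.62 ± 0.17. Those that fell were widely expressed: Rap1a at -0.45 ± 0.08, Prkcd at -0.26 ± 0.07 and Pak1 at -0.26 ± 0.07. These falls rest on the scaling, since with library totals alone the values were 0.17, 0.35 and 0.35. Arhgdia was at 0.18 ± 0.08 and did not pass (edgeR adjusted p = 0.0577), but was called higher with library totals alone. Between HOMO and HET, 7 rose and 3 fell, where 36.2% of all genes were called higher and 34.5% lower.

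NADPH, the electron donor of each oxidase, comes from the pentose phosphate pathway and from cytosolic dehydrogenases. Reported here are 5 genes of these routes, which are not the whole of this group. Of the 5 genes, 4 fell and 1 did not pass between HOMO and WT, with and without the library labelled HOMO replicate 3. Over all genes 34.7% were called lower. Me1 and Idh1, the cytosolic enzymes that alone among these 5 form NADPH themselves, were at -2.0 ± 0.20 and -1.86 ± 0.11, both called lower. Taldo1 and Tkt, the sugar-exchanging enzymes of the pathway, were at -0.60 ± 0.07 and -0.66 ± 0.13, both called lower, but with library totals alone they were at 0.01 and -0.05 and not called. Pgls was at 0.02 ± 0.15 (edgeR adjusted p = 0.894), and was called higher with library totals alone. None of the 5 genes was called between HET and WT, and 4 of them were called lower between HOMO and HET, where 34.5% of all genes were.

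**Figure D4:**
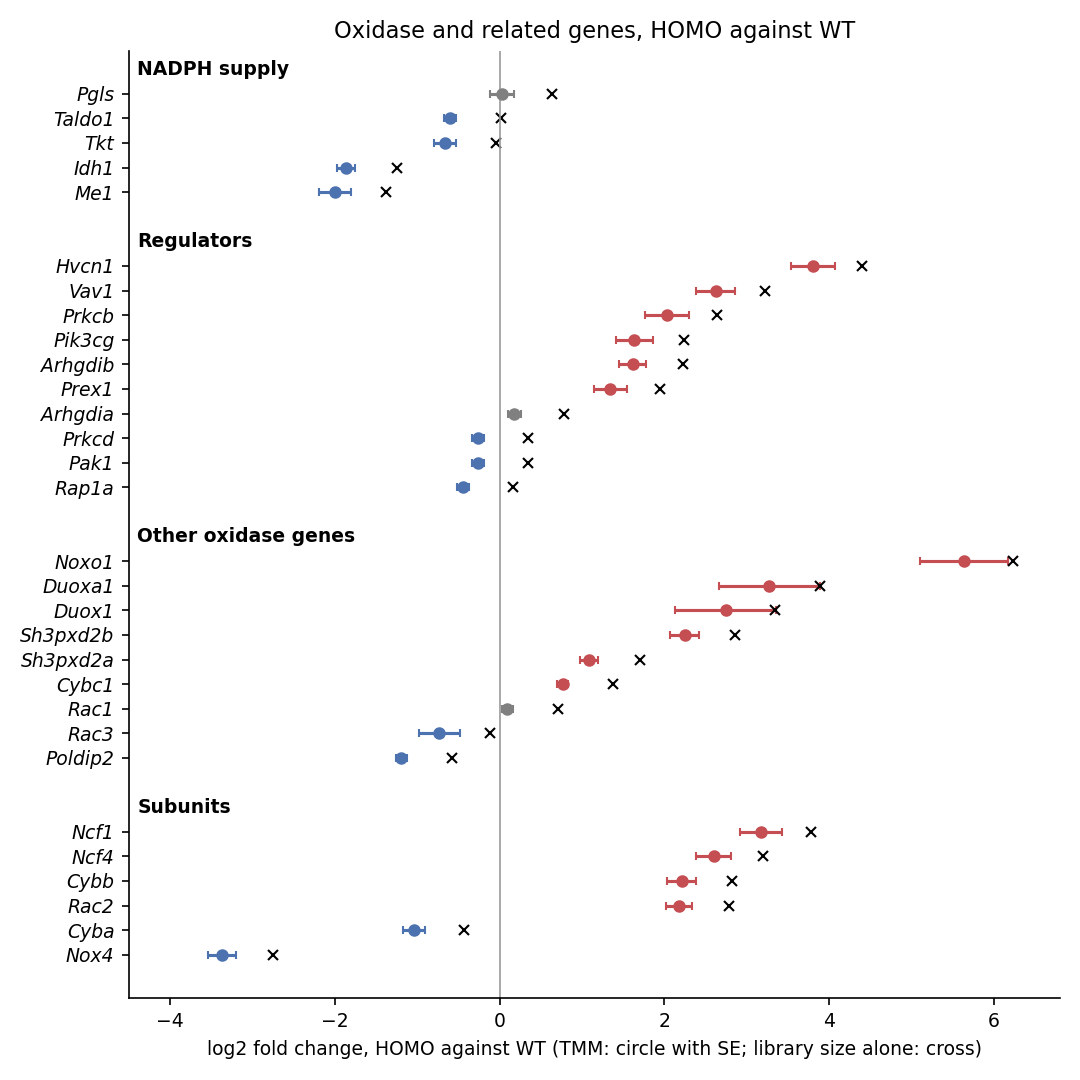
Log2 fold change of HOMO against WT for the members and the reported genes of the 3 lists; circles with bars are the TMM-scaled value and its SE, crosses the value with library totals alone, red called higher, blue called lower and grey not called. Nox4 has the lowest value of all genes shown (-3.37), and the crosses lie to the right of the circles by about the shift of the median gene.

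For each member, the 3 genes with the most similar profile were those with the smallest root mean square difference of log2 CPM over the 12 libraries, each profile centred on its own mean, among the 13851 tested genes with a named symbol. For Nox4 these were Tinag (0.154), a basement membrane protein of tubules, Dnajc6 (0.162) and Ass1 (0.165), the argininosuccinate synthase of the arginine pathway. For Cyba they were Bmp7 (0.113), Slit2 (0.122) and Gapdh (0.128). Cybb was nearest to Csf1r (0.0964), Vsir (0.108) and Was (0.108), the last being an actin regulator of blood cells. Ncf1 had no neighbour as close, with Trpv2 (0.175), Mmp19 (0.220) and Pram1 (0.234). Ncf4 was nearest to Tyrobp (0.161), an adaptor of myeloid receptors, Snx20 (0.167) and Fgr (0.168), a kinase of myeloid cells, and Rac2 to Lcp1 (0.108), Tmem176b (0.138) and Alox5ap (0.141). Among the members the closest pair was Cybb and Rac2 (0.198), followed by Ncf4 and Rac2 (0.222) and Cybb and Ncf4 (0.291). Ncf1 lay at 0.415 to 0.540 from the other phagocyte members, and Nox4 and Cyba were 1.08 apart. Because the difference between HOMO and the other groups makes up most of each profile, nearness here mostly reflects a similar fold change.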

How the data were processed

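Messenger RNA of flash-frozen rat kidney cortex was sequenced with a stranded kit in 12 libraries, 4 per genotype, per the labels. The authors deposited raw counts per gene and RPKM values. Counts divided by listed gene length and library total matched the deposited RPKM values with a median deviation of 0.0416%, so RPKM served only as that check. The authors' deposited comparison tables hold log2 fold changes with p-values and their false discovery rates (q-values) for 13851 genes in HOMO against WT. The deposited gene lengths give the values per kilobase, and listed ends were not used. The submitters' processing notes name Rnor_6.0 and edgeR 3.8.6. Which aligner, annotation and counting program were used, and whether strand was used, is not given in the sources used here, so reads of near-identical or overlapping genes may be shared.

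Of 22687 genes with a count, filterByExpr (minimum count 10, minimum total 15) kept 15856. After TMM scaling, edgeR 4.0.16 (R 4.3.3) fitted 1 quasi-likelihood model of genotype over the 12 libraries. Adjusted p-values are Benjamini-Hochberg over all genes tested, "rose", "fell" and "called" mean under 0.05, and fold changes carry their SE. Nearest profiles used log2 CPM with a prior count of 2. The steps were tested on simulated counts in which few genes changed, evenly up and down and with a fixed spread. Scaling under a change as broad as in these data was not tested that way. Named genes were the members, Xdh, the tested genes of 3 oxidase lists, markers, and the 3 nearest profiles of each member. Members and lists were chosen with earlier results of these data known. Symbols not matched (Dock2, Pgd, Itgam, Cd79a, Pecam1 and Col1a2) are not analysed here, and some genes of the lists are not reported here. No 2 libraries held identical counts. The labels name no batch. Alternatives were RLE factors, library totals alone, other filters, DESeq2 1.42.0, limma 3.58.1 voom, a replicate block, a level of 0.01, a fit on the compared libraries alone, and omitting each library in turn. Library totals and RLE factors for the pathway lists were added after seeing the data, as were list counts without HOMO replicate 3 and without genes that the WT and HET libraries alone would not pass.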

Additional observations from a re-analysis of the deposited data

Results flagged for a closer look

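In 39 groups of 4 libraries (the members, Xdh and the ratios by genotype), 3 held a library far from the others, with a gap to the nearest library above Dixon's critical value for 4 samples. Chance gives about 1 in 20 groups. Cybb in HET replicate 4 was at 27.3 CPM, below the 33.3 to 34.0 CPM of the other HET libraries (gap 0.905 of the range). Xdh in the library labelled HOMO replicate 3 was at 230 CPM, against 57.6 to 61.7 CPM in the other HOMO libraries (gap 0.976 of the range). In that library Nox4 was at 53.2 CPM and Cybb at 144 CPM, both inside the range of the other HOMO libraries, as was Ncf1. Cyba at 82.6 CPM, Ncf4 at 13.1 CPM and Rac2 at 40.5 CPM were the lowest of the HOMO libraries. For Ncf4 and Rac2 this is toward WT and for Cyba away from it. The next HOMO library was at 14.2 CPM for Ncf4 and 47.9 CPM for Rac2. The highest WT library was at 3.15 CPM for Ncf4 and 13.1 CPM for Rac2. The Cyba to Nox4 count ratio in HOMO replicate 4 was 2.79, against 1.44 to 1.56 in the other HOMO libraries (gap 0.909 of the range). That library had the highest Cyba level and the lowest Nox4 level of the group.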

How the results depend on the processing

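Under 21 alternatives each member kept its direction and its call in HOMO against WT and in HOMO against HET (126 of 126 values each). The alternatives share most of their data. The share of all called genes that kept their call was not counted, so this does not set the members apart. In HET against WT no member was called under any, and 10 of 126 values turned sign: Rac2 with limma voom (0.0108), and others on leaving out a library, with ranges of -0.17 to 0.0719 for Nox4, -0.18 to 0.11 for Cybb, -0.14 to 0.30 for Ncf1 and -0.12 to 0.10 for Rac2. Leaving out each library gave 10926 to 11583 genes called in HOMO against WT and 10743 to 11417 in HOMO against HET. With library totals alone Rap1a (0.17), Prkcd (0.35), Pak1 (0.35) and Taldo1 (0.0128) turned sign, while RLE factors changed none of the 24 list genes. Library totals alone called 12856 genes in HOMO against WT and 12894 in HOMO against HET. Of the ratios, the Nox4 ratio differed in opposite directions with Slc34a1 (0.89, sign turned) and with Cubn (-1.55) in place of Lrp2. It passed after adjustment there only because a further ratio was then at the smallest possible exact p. Cybb (-0.0945) and Rac2 (-0.14) turned sign with Csf1r in place of Ptprc. The cause of these changes with the reference gene was not tested. Leaving out a library gave log2 differences of 2.10 to 2.42 for Cyba to Nox4, -0.60 to -0.29 for Nox4 to Lrp2, 0.04 to 0.16 for Cybb, 1.01 to 1.2 for Ncf1, 0.42 to 0.57 for Ncf4 and 0.0009 to 0.12 for Rac2 to Ptprc. Without the library labelled HOMO replicate 3, Xdh was at -2.25 against WT (edgeR adjusted p = 5.40e-07) in place of -1.48 (edgeR adjusted p = 0.0101), and at -1.50 against HET (edgeR adjusted p = 1.24e-05) in place of -0.73 (edgeR adjusted p = 0.151). With library totals alone Xdh against WT was at -0.85 and not called (edgeR adjusted p = 0.0901), nor was it at a level of 0.01, and limma voom called it against HET (-1.01, limma adjusted p = 0.0257).

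Same-numbered libraries of different groups did not deviate together more than others. Of 10 same-numbered pairs, correlations ran from -0.133 to 0.44 and 3 were over 0.1. Of 38 pairs of different number, they ran from -0.404 to 0.441 and 11 were over 0.1. The numbers thus show no pairing here, but such correlations cannot exclude a shared litter or processing day. With the replicate number as a block, 11265 genes were called in HOMO against WT, 10805 in HOMO against HET and 0 in HET against WT, with 6, 6 and 0 members. For the ratios, sign flips within the 4 pairs gave exact p-values of 0.125 for Cyba to Nox4, Ncf1 and Ncf4, the smallest that 4 pairs allow. Depth limits Ncf4 most, with 41 to 108 counts per WT or HET library.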
